A study of Drosophila melanogaster with 3 samples.

Results

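The nuclear receptor genes linked to the insect moulting hormone ecdysone were followed through every peak list of a chromatin immunoprecipitation sequencing (ChIP-seq) experiment in fly embryos (*Drosophila melanogaster*). They were given as a list of 10 genes by symbol (EcR, usp, Eip75B, Eip78C, Hr3, Hr4, Hr38, Hr39, Hr78 and Hr96), and all 10 matched the annotation, which holds 13945 protein-coding genes on the main chromosome arms. The chromatin came from whole embryos of both sexes, collected 0 to 24 hours after egg laying and sheared to fragments of 200 to 800 bp. All 3 biological replicates came from the same transgenic line, which makes a fly protein with green fluorescent protein (GFP) joined at its C-terminus, and form 1 group. The labels call that protein CG45071 in one field, CG6854 in another and CTPsyn, which is CTP synthase, in yet another. The immunoprecipitation used an antibody to GFP, whereas the antibody field names CG6854. Neither the promoter that drives the fusion nor its amount is given in the labels, and whole embryos mix all cell types, so few cells with a strong signal and many with a weak one cannot be told apart.

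Ecdysone acts through a pair of nuclear receptors, EcR and its partner Usp, which bind DNA together and switch genes on when the hormone is present. Many of the genes they control first encode further nuclear receptors (Eip75B, Eip78C, Hr3, Hr4, Hr39), which relay the pulse to later genes, and a pulse also occurs in mid-embryogenesis. Several of these genes are long and start from alternative transcription start sites (TSSs) that give protein isoforms with different amino ends.

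Each replicate had a list of 30000 peaks, the pooled replicates had another of 30000, and an optimal list of 3545 peaks was drawn from them with the irreproducible discovery rate (IDR). The optimal peaks were exactly the 3545 pooled peaks with the highest signal, so rank in the pooled list also decides membership. Ranks count from 1 at the highest signal, which is the authors' own value for each peak on a scale that is not stated. Read numbers are not part of peak lists, so the depth behind each peak is unknown, and the weak end of a list of fixed length holds background as well as binding. With 1 group no contrast between conditions exists, and the values below are descriptions without a p-value, set beside the same values over all protein-coding genes.

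The receptor genes fell into 3 kinds. Long genes (Eip75B, Hr4, Hr3) had several optimal peaks inside them, the highest-ranked of them strong. At Hr3 only 1 was strong, and the other 3 had pooled ranks of 2189 to 3088. Short genes (Hr78, Hr96) had a strong peak at the start, and the rest (EcR, Hr38, Hr39, usp, Eip78C) had few or no optimal peaks. The gene body and 5 kb on either side, called the window here, held 28 optimal and 200 pooled summits over the 10 genes, and every gene had at least 1 pooled summit (background 88%). An optimal summit lay in the window of 8 of the 10 genes, where the background over all protein-coding genes was 39.4%. It lay within 500 bp of an own TSS at 4 genes (Eip75B, Hr39, Hr78, Hr96), with a background of 14.1%. Windows of these genes were long, with a median of 42.2 kb against 12.2 kb, and longer windows more often held a summit. Among windows of 20 kb or longer, 59.5% of all genes held an optimal summit and 29.2% had one at a TSS, against 6 and 2 of the 7 receptor genes of that length. Among shorter windows the backgrounds were 36.1% and 11.6%, against 2 and 2 of 3 receptor genes (both times Hr78 and Hr96).

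Per length, the receptor windows together held 0.561 optimal summits per 10 kb, against 0.382 over all protein-coding windows and 0.265 over the arms as a whole. For pooled summits the values were 4.01 in the receptor windows and 2.24 over the arms, which include sequence outside gene windows. The pooled value over all protein-coding windows is not given here. The optimal share of pooled peaks was close to that of the whole list, 14.0% against 11.8%. The strongest pooled peak of a window had a median rank of 896 over the 10 genes, 2299 over all windows of 20 kb or longer that held a pooled summit (n = 1883) and 4299 over all such windows (n = 12265). The receptor value was 1894 without flanks and 492 with flanks of 10 kb. Taken from the mean rank in the other 2 replicates instead of the pooled rank, it was 1470.75 without replicate 1, 1453.5 without replicate 2 and 781 without replicate 3. With only those optimal peaks that both other replicates held among their strongest 3545, the receptor density was 0.361, 0.301 and 0.341 per 10 kb without replicates 1, 2 and 3, against 0.270, 0.253 and 0.256 over all protein-coding windows under the same rule.

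**Figure D1:**
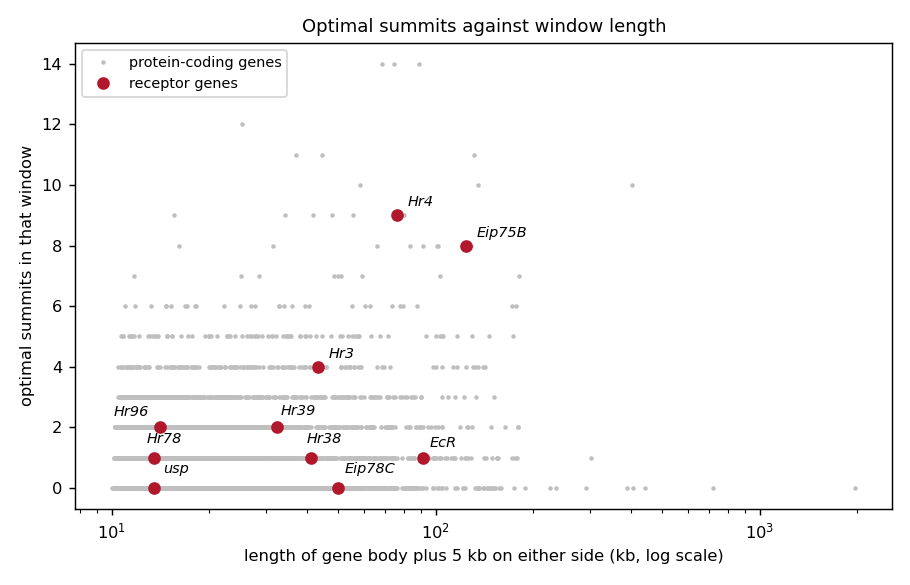
Number of optimal summits in the window of each protein-coding gene (grey) against the window's length in kb (log axis), with the 10 receptor genes in red. Hr4 with 9 and Eip75B with 8 stand high among genes of any length, while EcR with 1 and Eip78C with 0 have long windows and few optimal summits.

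Of the 28 optimal summits, only 6 lay within 500 bp of a TSS of the receptor gene itself, and these were 43 to 118 bp from it. Of the 6, 5 lay downstream of the TSS and 1 upstream. Another 7 summits were between 500 bp and 5 kb away and 15 were farther, up to 21999 bp, with a median distance of 5545 bp over all 28. Counting the TSS of any gene, 8 of 28 summits (28.6%) were within 500 bp, against 52.8% of all optimal summits. The annotation placed 18 of the 28 in introns, 4 in 5' untranslated regions, 1 in a 3' untranslated region, 2 in the upstream flank and 3 in the downstream flank, and none in coding exons. The intron share of 64.3% compares with 21.6% over the optimal summits in all protein-coding windows and with 54.7% in windows of 20 kb or longer, and the share in 5' untranslated regions of 14.3% with 5.61% and 6.49%. A summit there counts once for each gene whose window holds it.

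Eip75B (FBgn0000568, 3L:17950953-18064696, dm6, minus strand) encodes E75, a haem-binding receptor of the Rev-erb type that is among the first genes to answer ecdysone. It had 8 optimal and 64 pooled summits in its window of 124 kb, 0.646 optimal summits per 10 kb. Only 27 protein-coding genes (0.194%) had 8 or more optimal summits, and among windows of 70 kb or longer 14 of 230 did (6.09%).

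The 7 alternative TSSs of Eip75B, each with a transcript of its own, differed in what lay beside them. The peak at the start of Eip75B-RC (3L:17999735-17999955) had its summit 50 bp downstream of the TSS and ranked 266 in the pooled list, with ranks of 369, 245 and 266 in replicates 1, 2 and 3. The start of Eip75B-RA had a peak 101 bp downstream (3L:17971120-17971555) that ranked 1114 in the pool and 638, 1798 and 1454 in the replicates. The start of Eip75B-RD had a weaker peak 118 bp downstream (3L:17961478-17961913), with a pooled rank of 3108. That last peak was in the relaxed list of each replicate but among the 3545 strongest peaks of only replicate 2 (ranks 5926, 2223 and 8371).

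The remaining 4 starts of Eip75B, which are also the 4 most upstream, had no optimal summit within 500 bp. At Eip75B-RG, 38.7 kb into the gene, a pooled summit lay 71 bp upstream of the TSS and ranked 7550, with no peak within 500 bp of this TSS in replicate 1. At Eip75B-RE the nearest pooled summit ranked 21145, and the starts of Eip75B-RB and Eip75B-RF had no pooled summit within 500 bp and no replicate peak there either. The optimal summits of the gene began 34891 bp downstream of its most upstream TSS and reached past the start of Eip75B-RD, the most downstream one.

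The other 5 optimal peaks of Eip75B lay in introns. The strongest (3L:18019701-18019917) was 6217 bp downstream of the Eip75B-RG start and ranked 288 in the pool and 247, 332 and 376 in the replicates, close to the ranks of the promoter peak of Eip75B-RC. The others ranked 1268 (3L:17956300-17956735), 1379 (3L:18029743-18029872), 1395 (3L:17988108-17988543) and 3160 (3L:17977636-17978071). Replicates differed most at the peak of pooled rank 1379, which ranked 510 in replicate 1 but 2826 and 2509 in replicates 2 and 3. The peak of rank 3160 went the other way, at 13200 in replicate 1 and 3093 and 3817 in the others.

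**Figure D2:**
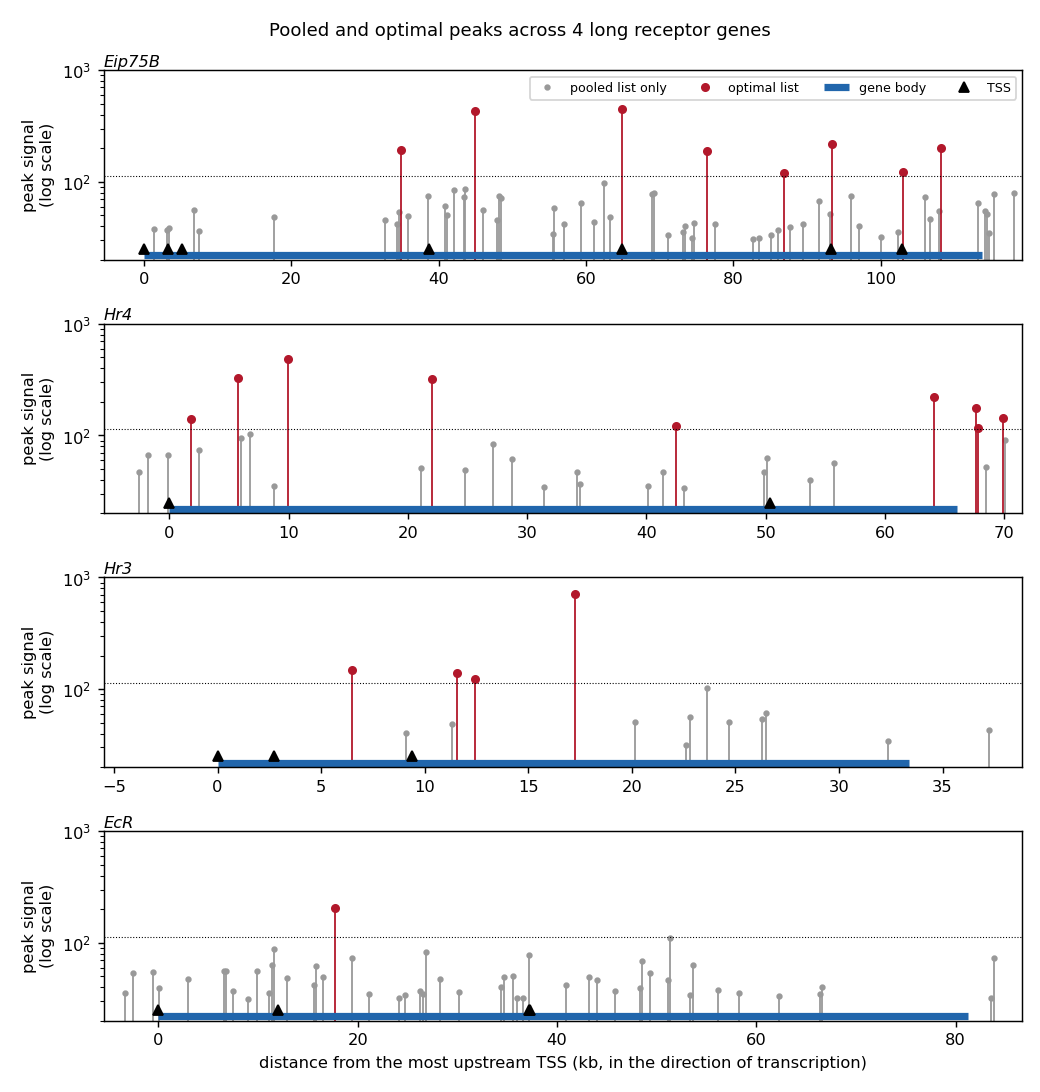
Signal of each pooled summit (vertical log axis, the authors' value) against its distance in kb from the most upstream TSS of Eip75B, Hr4, Hr3 and EcR, in the direction of transcription. Red points are optimal peaks, grey points are pooled peaks only, triangles are TSSs, the blue bar is the gene body and the dotted line is the lowest optimal signal of 114. Optimal peaks of Eip75B begin 34891 bp downstream of its most upstream TSS, those of Hr4 and Hr3 lie mostly away from a TSS, and EcR has 1.

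The sequence around the summits was read from the RefSeq copy of Release 6, the assembly of dm6, for 201 bases centred on the summit and in the direction of transcription. Sequences that reach well into an untranslated region, as at the start of Eip75B-RC, are not shown. The intron peak of pooled rank 288 (3L:18019715-18019915, minus strand) is shown because it was among the strongest in every replicate, and the intron peaks of rank 1268 (3L:17956418-17956618, minus strand) and 3160 (3L:17977754-17977954, minus strand) because they hold GAGAGA, the repeat bound by GAGA factor. The choice of these last 2 was made after their motifs were seen. Capitals mark matches to the motifs searched.
Eip75B rank 288: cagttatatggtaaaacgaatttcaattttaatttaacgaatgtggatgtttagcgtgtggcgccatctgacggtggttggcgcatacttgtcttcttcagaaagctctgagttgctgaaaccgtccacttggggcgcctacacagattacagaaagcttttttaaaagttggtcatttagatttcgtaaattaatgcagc
Eip75B rank 1268: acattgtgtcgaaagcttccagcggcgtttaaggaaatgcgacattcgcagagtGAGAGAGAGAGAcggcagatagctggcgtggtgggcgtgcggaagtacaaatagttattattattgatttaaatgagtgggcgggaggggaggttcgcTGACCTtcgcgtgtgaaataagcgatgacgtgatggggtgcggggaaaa
Eip75B rank 3160: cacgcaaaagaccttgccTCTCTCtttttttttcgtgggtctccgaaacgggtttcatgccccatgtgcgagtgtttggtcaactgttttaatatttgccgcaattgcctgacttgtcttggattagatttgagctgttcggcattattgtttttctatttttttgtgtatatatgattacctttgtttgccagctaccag

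GAGAGA, on either strand within 100 bp of the summit, was found at 4 of the 8 optimal summits of Eip75B and at 1 of 4 of Hr3 (pooled rank 3088), and at none of the other 16 optimal summits. Besides the 2 printed above, the optimal Eip75B peaks with a match were those at the starts of Eip75B-RC and Eip75B-RA. Pooled summits of Eip75B outside the optimal list held GAGAGA as well, for instance those of ranks 6632 and 6831. Their share within this gene is not given here. Over the optimal summits of the receptor genes the share was 5 of 28 (17.9%), against 13.9% of all optimal summits and 10.3% of the remaining pooled ones. Among the remaining pooled summits of the same 10 windows it was 36 of 172 (20.9%), above the share at their optimal summits. AGGTCA, the half-site recognised by many nuclear receptors, was found at 1 of the 28 optimal summits (3.57%), the rank 1268 peak printed above, where it reads on the opposite strand as TGACCT. The share was 3.39% over all optimal summits, 4.48% over the remaining pooled ones and 6.40% (11 of 172) over the remaining ones of the 10 windows. CACACA was found at 5 of the 28 (17.9%), against 19.1% of all optimal summits, 20.6% of the remaining pooled ones and 25% (43 of 172) of those in the 10 windows. TATCGATA, the site of the factor DREF (1.92% of all optimal summits), CAGGTAG, the site of the early activator Zelda (0.931%), and GGTCACACT, a core of the M1BP site (1.02%), were at none of the 28. A missing match means only that these letters are not in the 201 bases.

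Hr4 (FBgn0264562, X:1941940-2007956, plus strand) encodes a receptor that acts as a repressor in the ecdysone hierarchy. Its window held the most optimal summits of the 10 genes, 9 of 32 pooled, and the highest density among the long ones, 1.18 per 10 kb. Both rankings are for the window and not for the gene body. Of the 9, 3 lay past the 3' end, closer to other genes, whereas all 8 of Eip75B lay within its gene body. None lay within 500 bp of either TSS. The start shared by 7 transcripts (Hr4-RC among them) had a pooled summit 81 bp upstream that ranked only 8684. The start of Hr4-RE and Hr4-RF, 50.4 kb into the gene, had a pooled summit 230 bp upstream that ranked 9789.

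The strong peaks of Hr4 lay in the first part of the gene, behind its upstream start. A peak 9960 bp downstream of that start (X:1951800-1952060) ranked 227 in the pool and 275, 308 and 156 in replicates 1, 2 and 3, so all 3 placed it near the top. A peak at 5801 bp (X:1947661-1947827) had a pooled rank of 521 and replicate ranks of 704, 485 and 587. A peak at 21999 bp (X:1963841-1964045) ranked 542 in the pool and 318 and 481 in replicates 1 and 2, but 1615 in replicate 3. Weaker intron peaks lay 1832 bp downstream of that start (rank 2366), the closest of all to it, and 7907 bp upstream of the downstream start (rank 3164). A peak in the 3' untranslated region (X:2005823-2006258) ranked 1082.

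The last 3 optimal peaks in the Hr4 window lay past the 3' end of the gene, closer to other genes. The summits of pooled ranks 1622 and 3387 were 171 and 379 bp upstream of the start of PIG-K, which encodes a subunit of the enzyme complex that attaches GPI anchors, and 422 and 214 bp upstream of that of the noncoding gene lncRNA:CR45478. These 2 peaks overlap each other and were matched to the same peak in each replicate (ranks 5906, 1322 and 1182). The summit of rank 2305 lay 516 bp from the start of another gene. The sequence of the strongest Hr4 peak (X:1951800-1952000, plus strand) is shown because every replicate ranked it near the top, and it held none of the 6 motifs.
Hr4 rank 227: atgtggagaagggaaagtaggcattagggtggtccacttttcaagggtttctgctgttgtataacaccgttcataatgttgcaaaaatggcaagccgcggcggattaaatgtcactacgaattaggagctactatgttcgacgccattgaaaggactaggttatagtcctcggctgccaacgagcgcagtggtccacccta

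Hr3 (FBgn0000448, 2R:10203995-10237348, minus strand) encodes a receptor of the ROR type that acts between the early ecdysone genes and the later receptor gene ftz-f1. Its intron held the strongest peak of the 10 genes (2R:10219909-10220228), with a pooled rank of 85 and ranks of 84, 98 and 78 in replicates 1, 2 and 3. The summit was 7885 bp downstream of the nearest own TSS, the start shared by Hr3-RA, Hr3-RF and Hr3-RH, a base at which another gene is annotated to start as well. The 3 other optimal peaks of Hr3 lay 3013 and 2147 bp downstream and 2882 bp upstream of the same start, and ranked 3088, 2409 and 2189. None of its 3 TSSs had an optimal summit within 500 bp. The start of Hr3-RA had a pooled summit 285 bp upstream that ranked 19605, and the starts of Hr3-RC and Hr3-RD had no pooled summit within 500 bp.

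EcR (FBgn0000546, 2R:6087873-6169087, minus strand), the gene of the hormone receptor itself, had many weak peaks and 1 optimal peak. Its window held 51 pooled summits, 5.59 per 10 kb, the highest density of the 10 genes, and only 1.96% of them were optimal, the lowest share among the 8 genes that had any. Several of these pooled summits lay within 500 bp of the start of a transfer RNA gene or of a neighbouring gene, and not of EcR. The optimal peak (2R:6151117-6151552) lay in an intron, 5794 bp downstream of the start of EcR-RD and EcR-RE, and its nearest TSS of any kind was that of a transfer RNA gene inside EcR, at 1341 bp. It had a pooled rank of 1219 and ranks of 907 and 1034 in replicates 1 and 2, but 3576 in replicate 3, just below the strongest 3545. The next peak down (2R:6117528-6117963) ranked 3698 with a signal of 111, against 114 for the last optimal peak. All 4 TSSs of EcR had a pooled summit within 500 bp, with ranks of 7020 at the starts of EcR-RG and EcR-RB, 5773 at EcR-RD and 20832 at EcR-RA.

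The gene of its partner, usp (FBgn0003964, X:2038798-2042311, minus strand), had 5 pooled summits and no optimal one. The strongest (X:2041183-2041618) lay 89 bp upstream of the start of usp-RA, with a pooled rank of 4146 and ranks of 3148, 6989 and 3743. In replicate 1 it was among the strongest 3545, and in the others it was not. The start of usp-RB, 0.999 kb upstream of that of usp-RA, had a pooled summit 39 bp downstream that ranked 9638. A start of another gene lay equally near this summit, at 39 bp. The nearest optimal summit (pooled rank 144) was 7982 bp upstream of usp-RB, outside the window.

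Hr78 and Hr96 were the short genes with a strong peak at the start. Hr78 (FBgn0015239, 3L:21494019-21497494, minus strand), an orphan receptor gene needed for ecdysone responses in the larva, had a single pooled summit in its window, and it was optimal (3L:21496922-21497357). Its 3 TSSs span 553 bp, and the summit lay 43 bp downstream of the start of Hr78-RE, 354 bp downstream of the upstream start and 199 bp upstream of that of Hr78-RF, so it cannot be given to one of them. It ranked 411 in the pool and 573, 610 and 356 in the replicates. The noncoding gene asRNA:CR43933 starts 397 bp from the summit, which lies upstream of it.

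Hr96 (FBgn0015240, 3R:25025235-25029351, plus strand) encodes a receptor of the group of vertebrate xenobiotic sensors and acts in fat and cholesterol metabolism. Its promoter peak (3R:25024916-25025351) was the only optimal summit of the 6 near a TSS that lay upstream, at 101 bp. It ranked 573 in the pool and 619, 561 and 712 in the replicates, which placed it alike. The summit is also 117 bp upstream of the start of EMC6, which encodes a subunit of the ER membrane protein complex. It lies between both starts and the peak covers both, so the peak cannot be given to one of them. A second optimal peak in an intron of Hr96 (3R:25027404-25027839) ranked 3385 and was among the strongest 3545 peaks of only replicate 3 (ranks 4193, 3850 and 2946). The sequence between the starts (3R:25025034-25025234, plus strand) is shown because it is the strongest promoter peak without untranslated sequence around its summit, and it held none of the motifs.
Hr96 rank 573: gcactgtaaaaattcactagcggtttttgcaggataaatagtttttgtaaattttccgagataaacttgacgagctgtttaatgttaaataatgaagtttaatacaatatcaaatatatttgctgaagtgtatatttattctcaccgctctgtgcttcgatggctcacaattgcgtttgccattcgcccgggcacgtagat

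Hr38, Hr39 and Eip78C had weak or no optimal peaks. Hr38 (FBgn0014859, 2L:20683462-20714588, minus strand), a receptor gene of the NR4A type whose product can also pair with Usp, had 1 optimal summit of rank 2454, 621 bp upstream of its only TSS (2L:20714991-20715426, replicate ranks 3956, 2217 and 3706). It misses the 500 bp limit and counts as a promoter peak with a limit of 1000 bp, which makes 5 genes instead of 4. A further pooled summit 13 bp downstream of the TSS ranked 5364, with ranks of 6426, 8761 and 2708 in the replicates. Hr39 (FBgn0261239, 2L:21237250-21259675, plus strand), a relative of ftz-f1, had a peak 75 bp downstream of its TSS (2L:21237107-21237542) with a pooled rank of 3246 and replicate ranks of 4222, 3429 and 3108. Its intron peak at 14607 bp (2L:21251639-21252074) ranked 2569, and 2891, 3056 and 2551 in the replicates, so the weaker of the pair was the one at the promoter.

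Eip78C (FBgn0004865, 3L:21226609-21266503, plus strand), an ecdysone-induced relative of Eip75B, had no optimal summit. Its best peak ranked lowest of the 10 genes in the pooled list and in replicates 1 and 3. In replicate 2 the best peak of usp ranked lower, at 5312. The 3 TSSs of Eip78C had no pooled summit within 500 bp, the only gene of the 10 for which this was so (over all protein-coding genes, 51.3% had such a summit). The strongest of its 11 pooled summits ranked 11071, and its best peak in each replicate ranked 15827, 4351 and 10439. The replicate 2 peak of rank 4351 lay within 500 bp of the start of Eip78C-RB, where replicate 1 had a peak of rank 18537 and replicate 3 none.

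**Figure D3:**
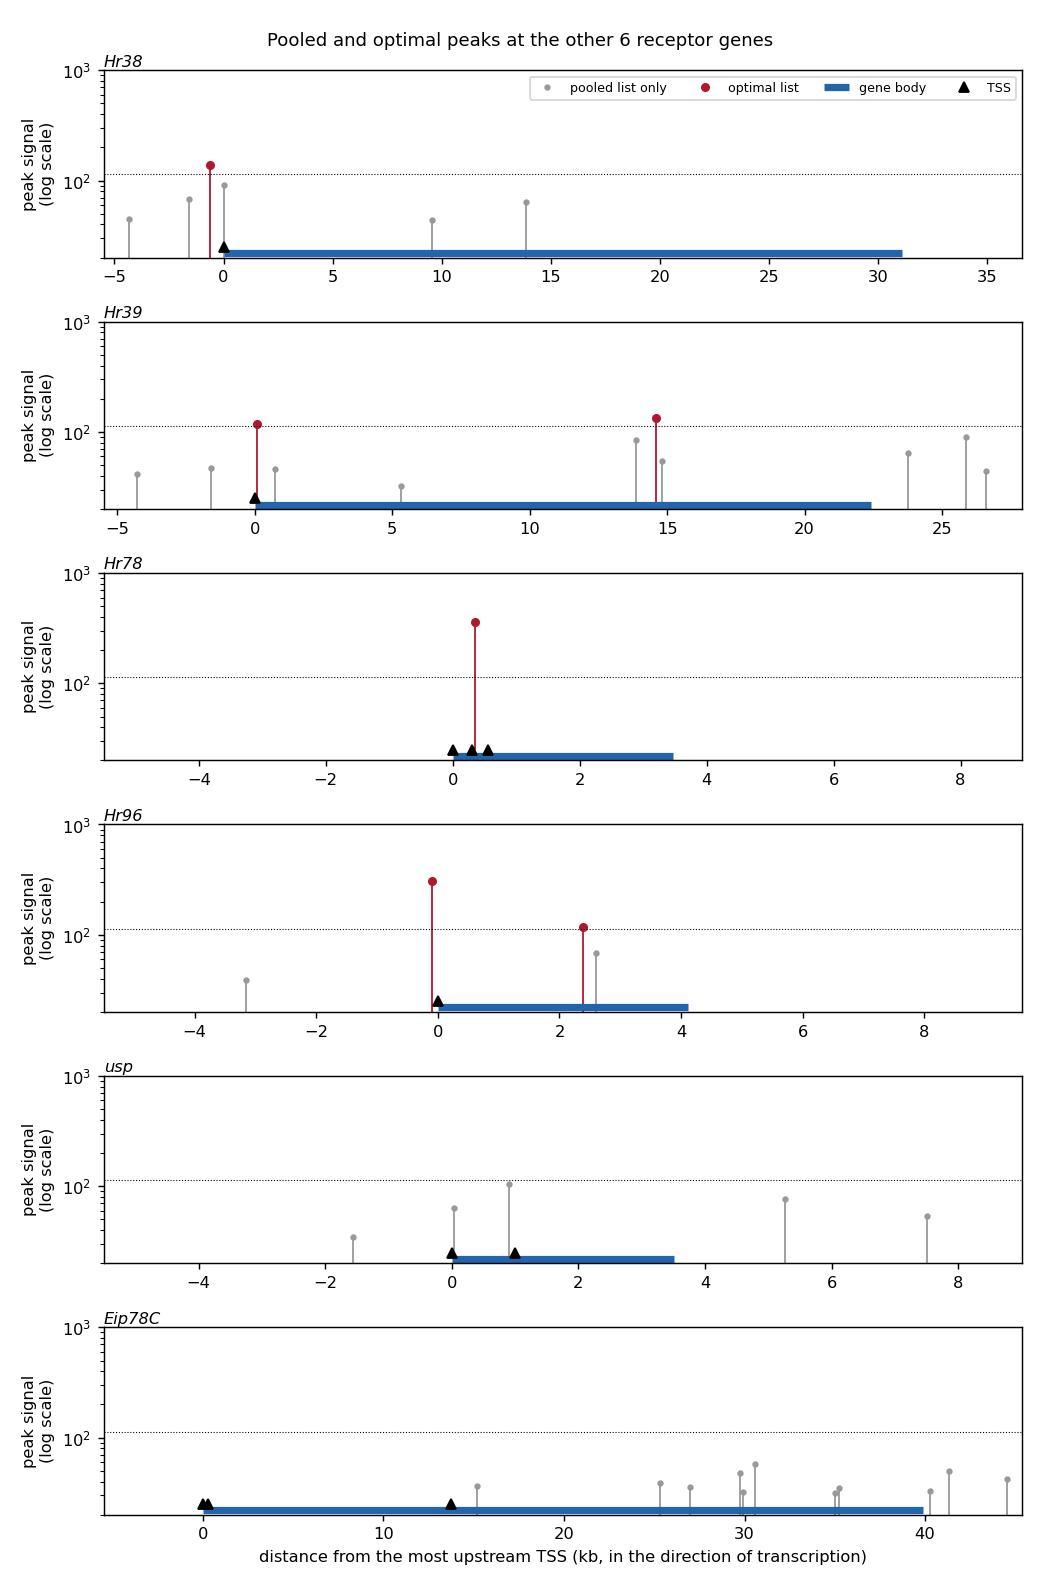
Signal of each pooled summit (vertical log axis) against its distance in kb from the most upstream TSS for the other 6 receptor genes, with the same symbols and dotted line as for the long genes. The peaks of Hr78 (signal 360) and Hr96 (310) stand at the start, those of Hr38 and Hr39 lie close to the dotted line, and usp and Eip78C have no point above it.

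Taking every TSS on its own, the 10 genes had 27 distinct starts for 47 transcripts. An optimal summit lay within 500 bp of 8 of them (29.6%), against 13.3% of 19607 TSSs of all protein-coding genes. The 8 belong to 4 genes, and 3 of them are the neighbouring starts of Hr78 that share a peak, so they are not 8 independent observations. A pooled summit of any rank lay within 500 bp of 20 of the 27 (74.1%), against 51.6% of all such TSSs.

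By strongest pooled peak, the order of the genes was Hr3 (85), Hr4 (227), Eip75B (266), Hr78 (411), Hr96 (573), EcR (1219), Hr38 (2454), Hr39 (2569), usp (4146) and Eip78C (11071). Over the replicates that same peak ranked 78 to 98 at Hr3, 156 to 308 at Hr4, 245 to 369 at Eip75B, 356 to 610 at Hr78 and 561 to 712 at Hr96. Hr3 stood apart from the next gene in all replicates. Each of the 4 genes after it overlapped in range with its neighbours, Hr4 with Eip75B, Eip75B with Hr78, and Hr78 with Hr96. Within each replicate Eip75B ranked above Hr78, while the order of Hr4 and Eip75B, and of Hr78 and Hr96, changed between replicates. Ranges also overlapped among EcR (907 to 3576), Hr38 (2217 to 3956) and Hr39 (2551 to 3056). That of usp (3148 to 6989) overlapped those of EcR and Hr38 but not that of Hr39. EcR ranked above Hr38 and usp in every replicate, while the other overlapping pairs among these genes changed order. None of these orders was tested. The peak of Eip78C (10600 to 25378) stood below all others.

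All 28 optimal peaks overlapped a peak in the relaxed list of each replicate. The same share over all optimal peaks is not given here. The optimal list was drawn from these lists, so such overlap is not independent evidence. Of the 28, 14 (50%) were matched among the strongest 3545 in all 3, against 57.2% of all optimal peaks. Replicate 1 held 19 of the 28 in that range (67.9%, against 75.7% of all optimal peaks), replicate 2 held 24 (85.7% against 83.4%) and replicate 3 held 21 (75.0% against 82.1%), so the receptor shares were near those of the whole list. The 8 peaks with a pooled rank up to 573 were in that range in every replicate. The 7 peaks with a pooled rank over 3000 were not, and 5 of them were in that range in only 1 replicate. Keeping only optimal peaks found in the top range of both other replicates left 18 of the 28 without replicate 1, 15 without replicate 2 and 17 without replicate 3. The same rule kept 69.6%, 64.5% and 65.3% of all 3545 optimal peaks. The count of 28 therefore includes peaks that 1 or more replicates placed below the limit of the optimal list, and so does the whole list. Matches here needed at least 1 bp of overlap. When at least 50% of both peaks had to overlap, 10 of the 28 were matched among the strongest 3545 in all 3 replicates.

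**Figure D4:**
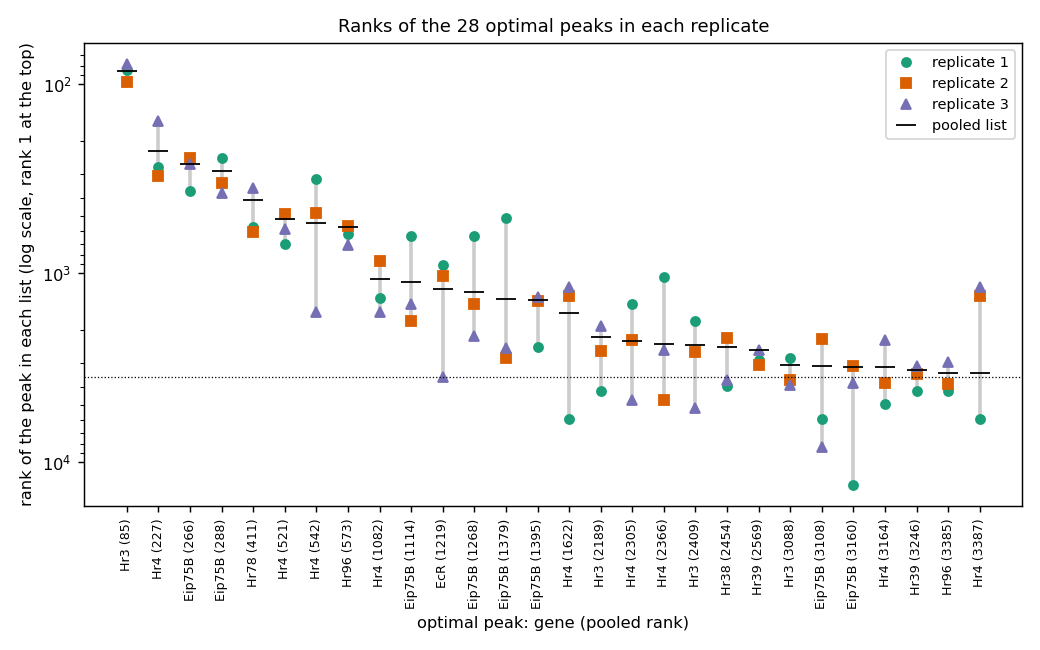
Rank of each of the 28 optimal peaks (vertical log axis, rank 1 at the top) in replicates 1, 2 and 3 and in the pooled list, in order of pooled rank, with a dotted line at 3545. The 3 replicates lie close together for Hr3 (85) and far apart for others, as for EcR (1219) with 907, 1034 and 3576.

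Among the other protein-coding genes, the promoter peaks most like that of Eip75B-RC in the 3 replicates, by the summed absolute difference in log10 rank, were those of pes (362, 262 and 241, a sum of 0.0803) and RpS10b (330, 273 and 275, a sum of 0.11). The measure compares strength in 3 replicates of 1 group and nothing else.

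Related genes were counted in the same way. Of the 11 other nuclear receptor genes, 3 had an optimal promoter summit (27.3%) and 6 had any in the window, with 0.447 optimal summits per 10 kb. The 3 were Hnf4, a lipid-sensing receptor gene (rank 513 with 327, 930 and 334 in the replicates), ERR, which controls sugar breakdown (rank 2198 with 6251, 3170 and 1659), and ftz-f1, the late receptor gene (rank 3267 with 7057, 2372 and 4722). Of 11 ecdysone response and co-regulator genes, 10 had an optimal summit in the window, with 0.431 per 10 kb, and 3 had a promoter summit. These were tai, a co-activator of EcR (rank 822 with 2061, 764 and 649), gce, a juvenile hormone receptor gene (rank 1869 with 122, 80 and 127), and Eip63E, a cyclin-dependent kinase gene (rank 2313 with 15292, 1669 and 1442). Replicate ranks are those of the highest-ranked overlapping peak. Of 10 genes for ecdysone synthesis, breakdown and import, only Oatp74D, the ecdysone importer gene, had a promoter summit, with rank 1425 and replicate ranks of 473, 9564 and 973, and 2 had any in the window (0.156 per 10 kb). The median strongest pooled rank was 2044, 1654 and 10255.5 in the 3 lists, over genes with a pooled summit in the window, against 896 in the receptor genes. The lists differ in gene length, with median windows of 18.9, 68.4 and 13.6 kb, and none of these differences was tested.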

How the data were processed

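The data were narrowPeak lists from ChIP-seq of 3 replicates of 1 group. The authors made each replicate's relaxed list from its alignments and a control, the pooled list from the 3 alignments, and the optimal list by IDR from these 4, per the notes deposited with the files. No aligner, caller or IDR threshold is named; these are not given in the sources used here. Ranks were taken from column 7, the deposited signal value, and the −log10 q-value column of the deposited lists was not used. Lists on dm3, alignments and controls were not analysed here.

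Coordinates are dm6, counted from 1, with Ensembl release 115 genes without transposable elements. Arm lengths were checked against the peak ends. The window of a gene was its body and 5 kb on either side. For 1 optimal peak the summit was moved to the last base of the peak. A replicate matched with at least 1 bp of overlap, by its highest-ranked peak. TSSs were all annotated transcript starts. The members, lists, motifs and rules were chosen with earlier results of these data known. Named were the 10 genes, genes with a TSS within 500 bp of an optimal summit in a window, up to 4 genes per list with the highest promoter rank, and the 2 most alike genes. Eip71CD is MsrA in the annotation, phm is phtm and EcI is Oatp74D. Replicates may be separate collections or not, since the labels say no more than biological replicate. No test was run. Alternatives were other flanks, promoter limits, list lengths, match rules, merged peaks and left-out replicates. The motif search was checked on simulated sequences with planted motifs. A check with planted summits did not run the counting itself and could not fail, so the counting was not checked. Python 3.11.15, numpy 2.4.6, pandas 2.3.3 and matplotlib 3.10.9 were used.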

Additional observations from a re-analysis of the deposited data

How the results depend on the processing

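No paired analysis was possible because the samples form 1 group and no test was run. Without flanks the median best rank was 1894 and the median TSS distance 5296 bp. With flanks of 10 kb the median best rank was 492, the distance was 5797.5 bp and the density was 0.501 optimal summits per 10 kb. The stronger 50% of the optimal list gave 15 optimal summits, a distance of 5801 bp, a density of 0.301 and 3 summits with GAGAGA. Leaving out a replicate gave 15 to 18 optimal summits, 3 to 4 genes with a promoter summit, a median best rank of 781 to 1470.75, a distance of 5801 to 6009 bp, a density of 0.301 to 0.361 and 3 summits with GAGAGA in each case. The pooled ranking still contains the replicate left out. With whole relaxed lists all 28 optimal peaks were found in every replicate, and the share over all optimal peaks under that rule is not given here. With the most upstream TSS of each gene alone the distance was 19875.5 bp. With 50 bp on either side of the summit 3 summits held GAGAGA. The other 24 alternatives, the rank of 492 among them, stayed within 1.5 times the reported count or within the spread between replicates. Depth is unknown, so a weak or missing peak cannot be told from one that was not sequenced deeply enough.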

Other observations

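Peaks that a replicate placed among its strongest 3545, but that overlapped no optimal peak, numbered 12 over the windows of the 10 genes. They were 5 of the 24 peaks in that range in replicate 1, 3 of 28 in replicate 2 and 4 of 24 in replicate 3. A site found in more than 1 replicate counts once for each. The same share over all genes is not given here. At Hr4, a peak 6782 bp downstream of the upstream start was in that range in replicates 1 and 2 (ranks 3389 and 3058) and had a pooled rank of 4158. At Eip75B there were 4 such peaks, with ranks of 3036 in replicate 1, 3259 in replicate 2, and 2080 and 2456 in replicate 3, each in 1 replicate only. At EcR, a peak 1665 bp upstream of a start ranked 3028 in replicate 3 and 13734 in the pool.

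The remaining 172 pooled peaks of the 10 windows had a median rank of 15378, against 16773 for all 26455 pooled peaks outside the optimal list. Of the 172, 74 (43.0%) overlapped a peak in all 3 relaxed lists and 4 (2.33%) overlapped none, against 39.8% and 3.32% of all. A TSS of any gene lay within 500 bp of 43 of them (25%), against 30.5% of all, and an own TSS within 500 bp of 14.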
